A study of Homo sapiens with 32 samples.

Results

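The mitochondrial ATP synthase (complex V) was followed through 10 of its nuclear-encoded subunit genes: ATP5F1A, ATP5F1C and ATP5F1D of the F1 head, ATP5MC1, ATP5MC2 and ATP5MC3 of the membrane ring, ATP5PO, ATP5PD and ATP5PF of the peripheral stalk, and the small membrane subunit gene ATP5MJ. The genes were taken by name wherever a transcript cluster (the array's group of probes for a gene) carried that single symbol. Each of the 10 had 1 such cluster, out of 14207 genes with a single-symbol cluster. The samples were B-lymphoblastoid cell lines (LCLs), B cells made to grow continuously with Epstein-Barr virus, from 7 HapMap donors: GM07019, GM07029, GM10835, GM12812, GM12813, GM12814 and GM12815. All cultures, in every group, received 200 µM 4-thiouridine (4sU) for 2 h, a nucleoside that marks RNA made during that time, and no culture without 4sU is analysed here. Total RNA and the 4sU-labelled nascent RNA of the same culture were put on separate human exon arrays, 32 arrays in all. GM07029, GM10835 and GM12813 were each grown as 3 independent cultures and the other 4 lines as 1 culture each. Every GM12813 culture was hybridised again in both fractions, and these technical duplicates were averaged. A line is the cells of 1 donor, so a difference between lines cannot be told apart from a difference between these particular cell stocks.

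ATP synthase couples the flow of protons across the inner mitochondrial membrane to the making of ATP. Protons turn the ring of c subunits and the central stalk, which drives the catalytic F1 head, while the peripheral stalk holds the head still. Nearly all subunits are encoded in the nucleus, by housekeeping genes. Mean signals of the 10 members over the 32 arrays ranged from 6.79 for ATP5PD to 11.81 for ATP5F1A (log2 intensity). The series was designed to read mRNA stability from nascent over total RNA and to compare it between donors. Here the nascent/total ratio of a gene is its nascent minus its total log2 intensity, set to 0 at the median cluster of the same culture. A negative ratio therefore means that nascent RNA was low for the amount of total RNA, as judged by the median cluster. It is not a half-life, and its relation to transcript length or uridine content was not tested.

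Letters known from binding sites of NRF1 and of GABP, transcription factors of nuclear genes for mitochondrial proteins, were searched before the annotated starts because all members share this function. The windows were the 250 bases upstream of each start in RefSeq (GRCh38.p14), read on both strands. Windows were found for 8 of the 10 genes. ATP5F1D and ATP5MC3 were not in the table. The NRF1 letters GCATGCGC, which read GCGCATGC on the other strand, stood before ATP5F1C, ATP5MC2 and ATP5PF, 3 of 8 genes, beside 3.22% of all 27305 genes with a window. By window this was 4 of the 12 windows of the 8 genes, beside 2.63% of all 35116 windows. The GABP letters CCGGAAG, which read CTTCCGG on the other strand, stood before ATP5F1A, ATP5PD and ATP5PF, also 3 of 8, beside 10.2% of all genes, and in 4 of their 12 windows, beside 8.52% of all windows. A single match is shown for each gene and motif, except the GABP match of ATP5F1A. All run 5′ to 3′ on the strand of the gene, with the matching letters in capitals.
ATP5F1C, NRF1 letters: ggggagcttcgGCGCATGCgcgctgaggcc
ATP5MC2, NRF1 letters: gtgtgacgactGCGCATGCtcggaaagggg
ATP5PF, NRF1 letters: ccactcaaagaGCGCATGCgtacagagcaa
ATP5PF, GABP letters: tgccaggggacCCGGAAGcacttaccctcc
ATP5PD, GABP letters: ccgggaagataCTTCCGGaaccagccctca
The ATP5F1C stretch (chr10:7788144-7788173, plus strand) and the ATP5PD stretch (chr17:75047052-75047081, minus strand) lay outside the annotated gene span, directly upstream of it. The ATP5MC2 stretch (chr12:53676370-53676399, minus strand) lay inside the gene span, before an internal start. The same was true of both ATP5PF stretches (chr21:25735156-25735185 and chr21:25735066-25735095, minus strand). These matches describe letters in a window and show no binding.

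Array medians were 6.74 to 6.95 in total RNA and 7.58 to 7.92 in nascent RNA (log2 intensity). The background, taken from olfactory receptors, genes of the nasal epithelium, was 6.40, and 14167 clusters with a higher mean were tested. It was taken over the arrays of both fractions. No background was computed for total RNA alone, where array medians were lower, so total RNA may be counted under background too often. All 10 members passed. The labelled cell type was borne out in total RNA by 6 of 6 measured B cell markers above background, against 1 of 8 T and NK cell markers, 0 of 5 of monocytes and granulocytes, and 3 of 6 of fibroblasts and epithelia. Mean marker levels by line ran from 9.27 to 9.98 for plasma cells (4 of 4 above background; 9.27 in GM07029, 9.43 in GM12813 and 9.92 in GM10835), 5.30 to 5.52 for T and NK cells, 4.74 to 4.99 for monocytes and granulocytes and 6.33 to 6.64 for fibroblasts and epithelia. T and NK cell markers and those of fibroblasts and epithelia were highest in GM10835, plasma cell markers were higher there than in GM07029 and GM12813, and B cell markers, at 10.4 to 11.1, lowest there; the part of these shifts in the results was not tested. The number of arrays limits the precision. In such bulk RNA, fewer cells of a type and less RNA per cell cannot be told apart. The gene ATP5PB, the b subunit of the stalk, had a single-symbol cluster at 4.22, under background, and was not tested. That the cluster's probes measure this gene was not checked, so the value is not read as its level. The clusters of ATP5F1B, ATP5F1E, ATP5ME, ATP5MG and ATP5MK carried several symbols and were not used here.

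Over the 7 lines, 7 of the 10 subunit genes had a lower nascent/total ratio than the median cluster, 1 had a higher one and 2 passed in neither direction. Among all tested clusters 31.7% were lower and 31.7% were higher, by limma at an adjusted p of 0.05. The median ratio of the 10 genes was -0.55, beside -0.01 over all tested clusters. These directions hold relative to the median cluster, which without centring of the culture stood at 0.65 to 0.88 in the lines. With no centring ATP5F1C alone was still called lower, and ATP5F1D, ATP5MC1, ATP5MC2 and ATP5MJ turned positive. Then 4 members were called higher, ATP5PD, ATP5PF and also ATP5F1D (0.36, limma adjusted p 0.0307) and ATP5MC2 (0.32, adjusted p 0.00449). Each of the 7 lower genes was below 0 in all 7 lines, which 24.9% of tested clusters also were with a call.

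ATP5F1C and ATP5F1A of the F1 head had the most negative mean ratios as reported, and with the trend of the ratio on signal intensity removed the lowest was ATP5PO of the stalk (-0.94). ATP5F1C, the gamma subunit of the rotating central stalk, had ratios of -1.16 in GM07019, -1.07 in GM07029, -1.53 in GM10835, -1.10 in GM12812, -1.22 in GM12813, -1.47 in GM12814 and -1.35 in GM12815. All lines lay close together and far below 0, with a mean of -1.27 ± 0.18 (SD, n = 7 lines; limma adjusted p 6.18e-07). On a linear scale this was 41.4% of the ratio of the median cluster. With the signal trend removed it was -0.88. Calls at a mean below -1 were made for 5.93% of tested clusters. ATP5F1A, the alpha subunit, which alternates with the catalytic beta subunit in the head, had -1.13, -0.87, -1.51, -0.63, -1.02, -0.75 and -1.10 in the same order of lines. Its mean was -1.0 ± 0.29 (SD, n = 7; limma adjusted p 7.07e-06), with GM10835 lowest and GM12812 highest. With the signal trend removed it was -0.48 (adjusted p 0.00229).

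ATP5F1D, the delta subunit at the foot of the central stalk, was spread much more widely. Its ratios were -0.37 in GM07019, -0.58 in GM07029, -1.35 in GM10835, -0.0039 in GM12812, -0.41 in GM12813, -0.06 in GM12814 and -0.12 in GM12815. GM10835 stood apart from the other 6 lines. The mean was -0.41 ± 0.46 (SD, n = 7; limma adjusted p 0.0237). Without GM10835 it was -0.26 (adjusted p 0.0313), and without GM07029 the call was lost (adjusted p 0.0591).

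The ring of c subunits is built from ATP5MC1, ATP5MC2 and ATP5MC3, which encode the same mature protein with different mitochondrial targeting sequences. All 3 were lower. ATP5MC3 had ratios of -0.86 in GM07019, -1.03 in GM07029, -1.23 in GM10835, -0.55 in GM12812, -1.10 in GM12813, -0.71 in GM12814 and -0.82 in GM12815, a mean of -0.90 ± 0.24 (SD, n = 7; limma adjusted p 6.48e-06), which became -0.60 with the signal trend removed. ATP5MC1 had -0.36, -0.79, -1.16, -0.47, -0.70, -0.29 and -0.77 in that order, a mean of -0.65 ± 0.30 (adjusted p 0.000202). Every line of both genes was below 0, and GM10835 was lowest in each. ATP5MC2 had -0.02, -0.44, -0.77, -0.70, -0.47, -0.44 and -0.36, a mean of -0.46 ± 0.24 (adjusted p 0.00101), with GM07019 nearly at the median cluster. Processed pseudogenes of these genes exist, and whether probes also match them was not checked.

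Because these genes give one protein, their ratios were set against each other within each line. The ratio of ATP5MC1 exceeded that of ATP5MC3 in 7 of 7 lines, by 0.25 ± 0.19 (SD; exact two-sided sign-flip permutation test, p = 0.0156, the smallest that 7 lines allow; 0.0469 after Benjamini-Hochberg adjustment over 3 pairs). ATP5MC2 exceeded ATP5MC3 in 6 of 7 lines, by 0.44 ± 0.31 (exact p = 0.0313, adjusted 0.0469), and the exception was GM12812 at -0.14. ATP5MC1 minus ATP5MC2 was -0.19 ± 0.27, negative in 5 of 7 lines (exact p = 0.109, adjusted 0.109). With the trend of the ratio on signal intensity removed, the first difference turned to -0.14 and the second was 0.21, both with an adjusted exact p of 0.141. Leaving out any line except GM12812 also ended both calls. With 6 lines the smallest p that this test allows is larger than with 7. ATP5MC1 minus ATP5MC3, positive in every line, cannot go below it. The loss of that call therefore does not show that the difference depends on a single line.

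**Figure D1:**
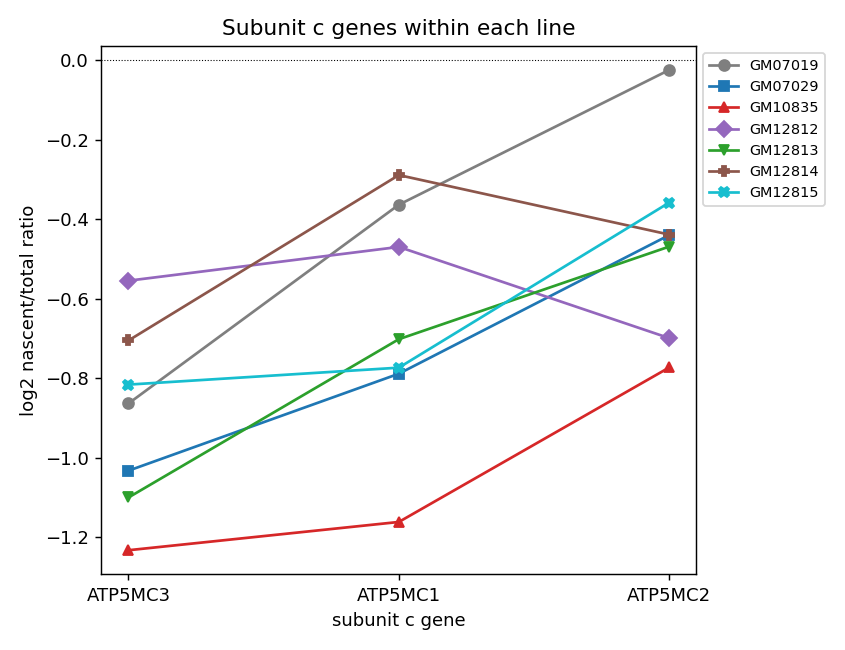
Log2 nascent/total ratio (0 is the culture's median cluster) of the 3 subunit c genes, with 1 coloured line joining the values of each of the 7 cell lines. ATP5MC3 lies below ATP5MC1 in all 7 lines and below ATP5MC2 in all but GM12812; with the signal trend removed the order of ATP5MC3 and ATP5MC1 turns.

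The peripheral stalk was not uniform. ATP5PO, the OSCP subunit that ties the stalk to the F1 head, had ratios of -0.55 in GM07019, -0.93 in GM07029, -1.46 in GM10835, -0.39 in GM12812, -1.07 in GM12813, -0.91 in GM12814 and -0.66 in GM12815, a mean of -0.85 ± 0.36 (SD, n = 7; limma adjusted p 6.43e-05). ATP5PF, coupling factor 6, was the one member called higher, with 0.33, 0.09, -0.09, 0.48, 0.18, 0.56 and 0.07 in the same order and a mean of 0.23 ± 0.23 (adjusted p 0.0440). GM10835 was its only line below 0. In GM12814 and GM12812, where the ratio of ATP5PF was highest, its total RNA was 6.43 and 6.61, near the background of 6.40. The call ended without GM07019, GM07029, GM12812, GM12813 or GM12814 (limma adjusted p 0.0575 to 0.135), with quantile normalization (0.0650), over the 13 cultures with the line as a random block (0.0894) and with the signal trend removed (0.139).

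ATP5PD, the d subunit of the stalk, passed in neither direction. Its ratios were 0.61 in GM07019, -0.15 in GM07029, -0.70 in GM10835, 0.45 in GM12812, -0.02 in GM12813, 0.34 in GM12814 and 0.16 in GM12815, a mean of 0.10 ± 0.44 (SD, n = 7; limma adjusted p 0.545). Its total RNA lay above the background of both fractions in 2 lines and not in the other 5. Most of its ratios are therefore read as resting on a total RNA value that is only a bound. The 3 genes with NRF1 letters before a start, ATP5F1C, ATP5MC2 and ATP5PF, had mean ratios of -1.27, -0.46 and 0.23, which include both the lowest and the highest of the members.

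ATP5MJ, a small membrane-bound proteolipid subunit, varied most. Its ratios were 0.03 in GM07019, -1.09 in GM07029, -1.75 in GM10835, -0.05 in GM12812, 0.11 in GM12813, 0.30 in GM12814 and 0.04 in GM12815. GM07029 and GM10835 lay more than 1 log2 unit below the other 5 lines, which clustered around the median cluster. Of those 5 lines, GM12815 had total RNA of 6.55, near the background of 6.40. The GM07029 value is a mean of cultures at -0.22, -1.52 and -1.54, of which the first lay near those 5 lines. The mean was -0.34 ± 0.77 (SD, n = 7; limma adjusted p 0.193).

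**Figure D2:**
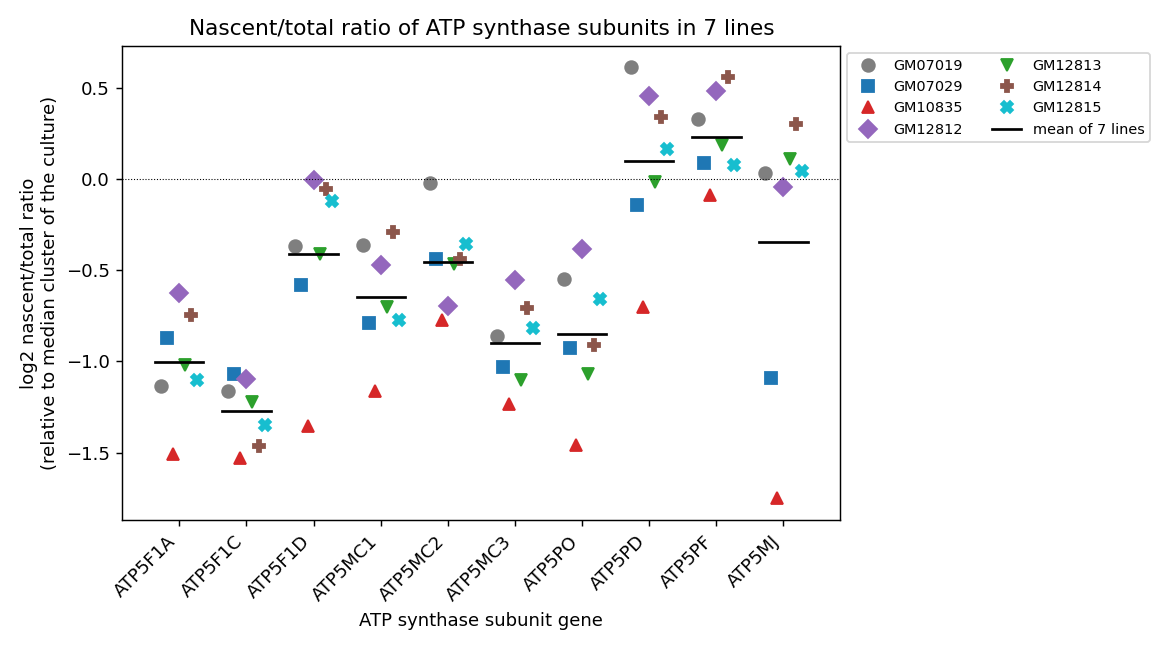
Log2 nascent/total ratio, with the culture's median cluster at 0 (dotted line), for the 10 ATP synthase subunit genes, with 1 symbol per cell line and a bar at the mean of 7 lines. Most genes lie below 0, and the red triangles of GM10835 are lowest for each gene. ATP5MJ shows GM07029 and GM10835 apart from the rest, although the first GM07029 culture lay near the rest. Without centring, ATP5F1D, ATP5MC1, ATP5MC2 and ATP5MJ have means above 0.

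GM10835 had the lowest ratio of the 7 lines for all 10 members, whereas it was the lowest line for 22.6% of all tested clusters. Its median over the 10 genes was -1.29. GM07029 followed at -0.83, GM12813 at -0.59, GM12815 at -0.51, GM12812 at -0.43, GM07019 at -0.37 and GM12814 at -0.36. The count was 9 without centring, where 17.4% of tested clusters were lowest in GM10835, and 8 from the third GM10835 culture alone. The 10 genes were read on the same arrays of the same 7 lines, so they do not count as independent observations. Differences between lines other than GM07029, GM10835 and GM12813 rest on 1 culture each.

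Steady-state levels were highest in the same line. GM10835 had the highest total RNA of the 7 lines for 9 of 10 members, against 30.2% of tested clusters, and the exception was ATP5MC2, highest in GM12812 at 9.71. The ratio is computed from the same total RNA values, so these counts are not independent of those for the ratio. The count was the same from each GM10835 culture alone and with each array centred on its median. In nascent RNA GM10835 was highest for 7 members, against 35.6% of tested clusters, and GM12812 was highest for ATP5F1D, ATP5MC2 and ATP5PD. With each array centred on its median this fell to 1 member, against 10.6% of tested clusters. The median nascent level of all tested clusters was itself highest in GM10835, at 9.07, where the other lines lay between 8.49 and 8.88.

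The 3 lines with 3 cultures each allowed a test between lines. In total RNA, 9 of 10 members differed by limma's moderated F test, where 56.3% of all tested clusters did. All 9 were higher in GM10835 than in GM07029 (27.8% of tested clusters) and than in GM12813 (25.4%). The median difference of the 10 members between GM10835 and GM07029 was 0.78, beside 0.10 over all tested clusters. Every culture of GM10835 lay above every culture of GM12813 for all 10 genes, although cultures of this pair did not overlap in either direction for 50.7% of tested clusters.

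ATP5F1D showed the separation most plainly. Total RNA was 8.18, 8.62 and 8.57 in the GM07029 cultures, 9.63, 9.58 and 9.53 in GM10835 and 8.40, 8.50 and 8.32 in GM12813. GM10835 was above both other lines without overlap. The differences were 1.12 from GM07029 (SE 0.126; limma adjusted p 6.38e-05) and 1.18 from GM12813 (adjusted p 4.79e-05).

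Total RNA of ATP5F1A was 11.61, 11.74 and 11.94 in GM07029, 12.58, 12.56 and 12.47 in GM10835, and 12.00, 11.72 and 11.85 in GM12813. GM10835 exceeded GM07029 by 0.78 (SE 0.0987; limma adjusted p 0.000142). ATP5F1C was higher there by 0.65 (adjusted p 0.000468), ATP5MC1 by 0.78 (0.00117), ATP5MC3 by 0.76 (0.000575), ATP5PO by 0.85 (0.000351) and ATP5PF by 0.56 (0.00224). These genes come from the head, the ring and the stalk. ATP5PD was at 7.40, 7.44 and 7.52 in GM10835 and under background in all 3 GM07029 cultures, so its GM10835 level was at least 2.07-fold higher than the background bound (measured means 7.45 and 6.04; adjusted p 3.15e-05). ATP5MC2 did not pass, with 9.28 ± 0.16 in GM07029, 9.51 ± 0.12 in GM10835 and 9.22 ± 0.06 in GM12813 (SD, n = 3 cultures; limma's F test, adjusted p 0.0978).

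**Figure D3:**
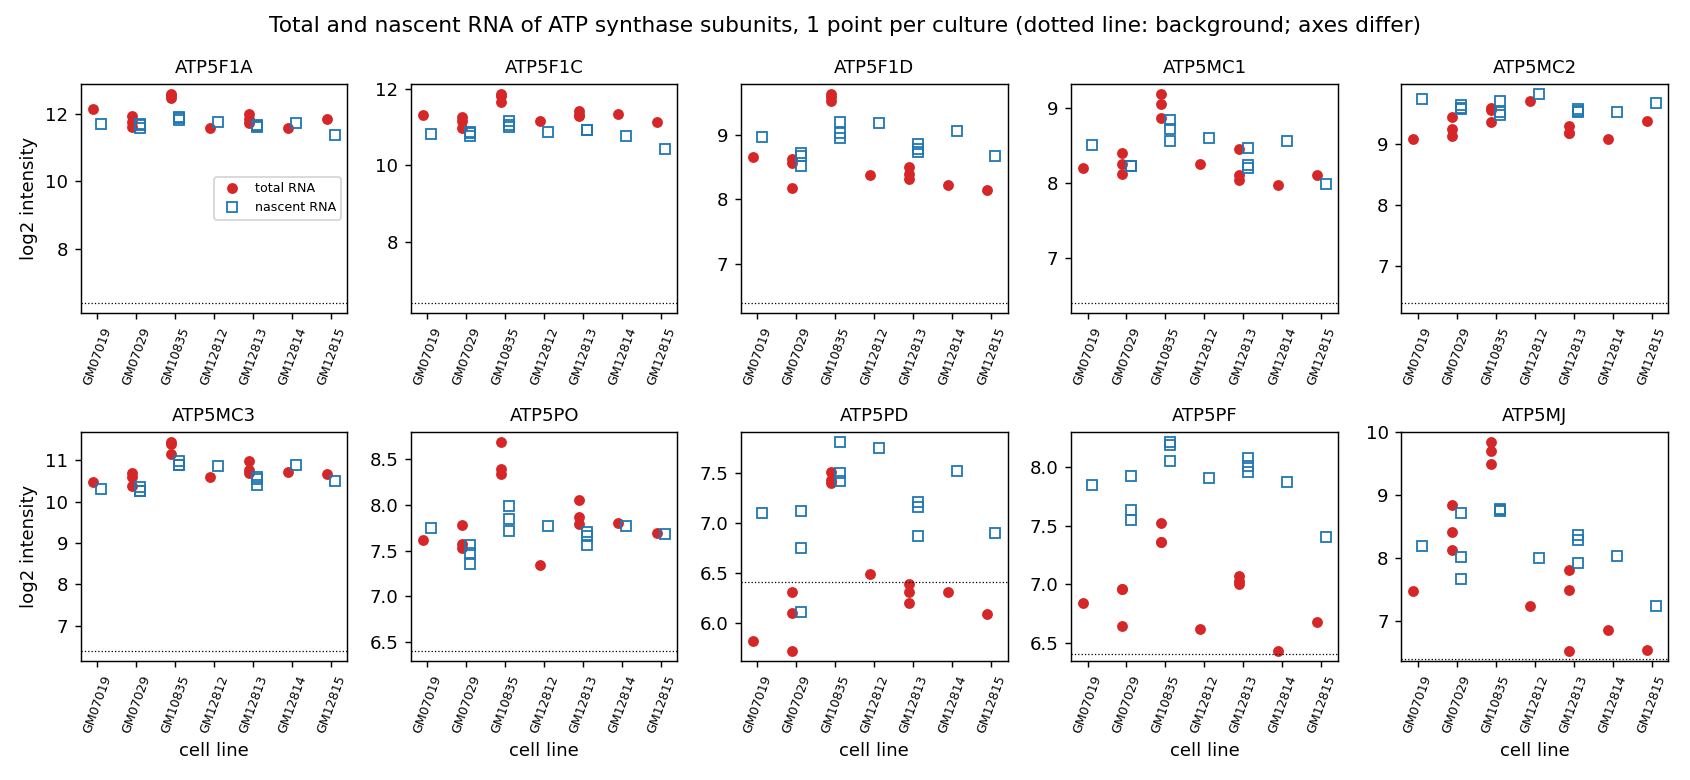
Log2 intensity of total RNA (filled circles) and nascent RNA (open squares) for the 10 genes, with 1 point per culture and the 7 lines along each axis; the dotted line is the background of 6.40 and the vertical axes differ between panels. Total RNA of GM10835 is highest in every panel except ATP5MC2, and the line means span less in nascent than in total RNA; with each array centred, GM10835 is highest in nascent RNA for 1 gene.

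Nascent RNA also differed between the 3 lines for 9 of 10 members (56.7% of tested clusters), with ATP5MC2 again the exception (limma adjusted p 0.809). These 9 were higher in GM10835 than in GM07029 (40.0% of tested clusters), by a median over the 10 members of 0.44, beside 0.16 over all tested clusters. GM12813 was below GM10835 for ATP5F1A, ATP5F1D, ATP5MC1 and ATP5MC3 (4 of 10; 32.1%) and above GM07029 for ATP5MC3 and ATP5PF (2 of 10; 16.3%). Cultures of GM10835 and GM12813 did not overlap for 8 of 10 members, beside 59.7% of tested clusters. With each array centred on its median, 2 members differed (55.8% of tested clusters). ATP5MC3 was then higher in GM10835 than in GM07029 by 0.37 (adjusted p 0.00511) and ATP5MC2 was lower by 0.29 (difference -0.29, adjusted p 0.0190). ATP5F1A and ATP5F1C turned slightly negative and did not pass. Total RNA kept 9 calls under the same centring (61.1% of tested clusters).

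ATP5MC3 had the smallest adjusted p of the members in nascent RNA. Its nascent level was 10.25, 10.36 and 10.27 in GM07029, 10.98, 10.88 and 10.89 in GM10835, and 10.40, 10.59 and 10.54 in GM12813. The 3 lines did not overlap, and GM10835 exceeded GM07029 by 0.63 (SE 0.0682; limma adjusted p 3.20e-05). Its total RNA was higher there by a similar 0.76, and its ratio passed no test between lines (adjusted p 0.565).

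The ratio differed between the 3 lines for 4 of 10 members, ATP5F1A, ATP5F1C, ATP5F1D and ATP5MJ, where 25.4% of tested clusters differed. Between pairs of lines, GM10835 was below GM07029 for ATP5F1A, ATP5F1C, ATP5F1D and ATP5PO (4 of 10; 6.35% of tested clusters). GM12813 was above GM10835 for ATP5F1A, ATP5F1D and ATP5MJ (3 of 10; 11.2%) and above GM07029 for ATP5MJ alone (1 of 10; 7.38%). Cultures of GM10835 and GM12813 did not overlap in the ratio for 8 of 10 members, beside 46.7% of tested clusters.

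The ATP5F1A ratio was -0.75, -0.93 and -0.95 in GM07029, -1.51, -1.54 and -1.47 in GM10835, and -1.08, -0.88 and -1.10 in GM12813. GM10835 lay below both other lines without overlap, by 0.63 and 0.49 log2 units (limma's F test, adjusted p 0.00625). ATP5F1D was at -0.31, -0.87 and -0.56 in GM07029, -1.26, -1.40 and -1.40 in GM10835 and -0.41, -0.49 and -0.34 in GM12813, again with GM10835 apart (adjusted p 0.00235). ATP5F1C had means of -1.07 ± 0.12, -1.53 ± 0.03 and -1.22 ± 0.05 in GM07029, GM10835 and GM12813 (SD, n = 3 cultures; adjusted p 0.0250). That call did not hold without centring (0.0847), with quantile normalization (0.0919) or without the filter on dim clusters (0.0891). It was also lost without any single GM10835 culture (0.0676, 0.0693 and 0.101 without replicates 1, 2 and 3) and without replicate 2 or 3 of GM12813 (0.0593 and 0.0567).

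ATP5MJ separated the lines furthest. Total RNA was 8.13, 8.42 and 8.84 in GM07029, 9.70, 9.50 and 9.84 in GM10835, and 7.82, 7.50 and 6.53 in GM12813. The 3 lines formed separate levels, with GM10835 above GM12813 by 2.39 (limma adjusted p 9.05e-05) and GM12813 below GM07029 (difference -1.18, adjusted p 0.00754), the one member for which that pair passed in this direction (15.6% of tested clusters). Nascent RNA was 8.72, 7.67 and 8.02 in GM07029, 8.77, 8.76 and 8.75 in GM10835, and 8.37, 8.29 and 7.93 in GM12813. GM07029 and GM12813 overlapped in nascent RNA, and GM10835 lay above both, though barely above the first GM07029 culture. GM10835 exceeded GM07029 by 0.62 (limma adjusted p 0.0364), while GM12813 minus GM10835 was -0.56 and did not pass (adjusted p 0.0548). With each array centred on its median neither pair passed (limma adjusted p 0.124 and 0.122). Over all 7 lines the range of ATP5MJ was 3.13 in total RNA and 1.52 in nascent RNA. Its lowest line in total RNA, GM12815 at 6.55, and the third GM12813 culture at 6.53 lay near the background of 6.40. The part of this nearness in the total RNA differences was not tested.

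The ATP5MJ ratio, which is computed from total RNA and so not independent of it, was lowest in the line where total RNA was highest. It was -0.22, -1.52 and -1.54 in GM07029, -1.74, -1.59 and -1.91 in GM10835 and -0.20, 0.01 and 0.52 in GM12813 (limma's F test, adjusted p 0.00546). The first GM07029 culture lay near GM12813 and the other two lay near GM10835. The 0.52 of the third GM12813 culture rests on total RNA near the background. The technical duplicates of the GM12813 cultures differed in this ratio by -0.07, 0.42 and -0.26. The SD between cultures was 0.76 in GM07029, 0.16 in GM10835 and 0.37 in GM12813. The duplicates agreed least for ATP5PD in the third GM12813 culture, where the ratio differed by 1.66. A plain F test per cluster, the test named in the study's design, left ATP5MJ at an adjusted p of 0.0575.

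Genes of the other respiratory complexes were read in the same way. GM10835 had the lowest ratio of the 7 lines for 22 of 26 tested complex I genes, 5 of 10 of complexes II and III and 9 of 9 of complex IV, again beside 22.6% of all tested clusters. It had the highest total RNA for 26 of 26, 8 of 10 and 9 of 9. The median ratio in GM10835 was -1.23 for complex I, -0.88 for complexes II and III and -1.29 for complex IV, the last equal to that of the ATP synthase genes. Within complex I, 11 genes were lower over 7 lines and 5 higher. NDUFB5, a membrane-arm subunit, was at -1.34 ± 0.32, and NDUFA10 at -1.05 ± 0.16 (SD, n = 7). In complexes II and III 5 were lower and 3 higher, with SDHC, a membrane anchor of succinate dehydrogenase, at -2.17 ± 0.87 and UQCRC2 at -1.01 ± 0.26. The 3 higher included CYCS at 0.20 (limma adjusted p 0.0416). CYCS is cytochrome c and not a subunit of either complex, and the counts of this list include it. They also included SDHD at 0.63, whose mean total RNA of 5.46 was under background, so its ratio rests on a bound. In complex IV 7 were lower and 1 higher, with COX6B1 at -1.17 ± 0.48. COX4I1, another structural subunit of that complex, went the other way at 2.59 ± 0.33. Its mean total RNA of 7.12 was the lowest of the tested complex IV genes. That the cluster's probes measure COX4I1 was not checked.

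**Figure D4:**
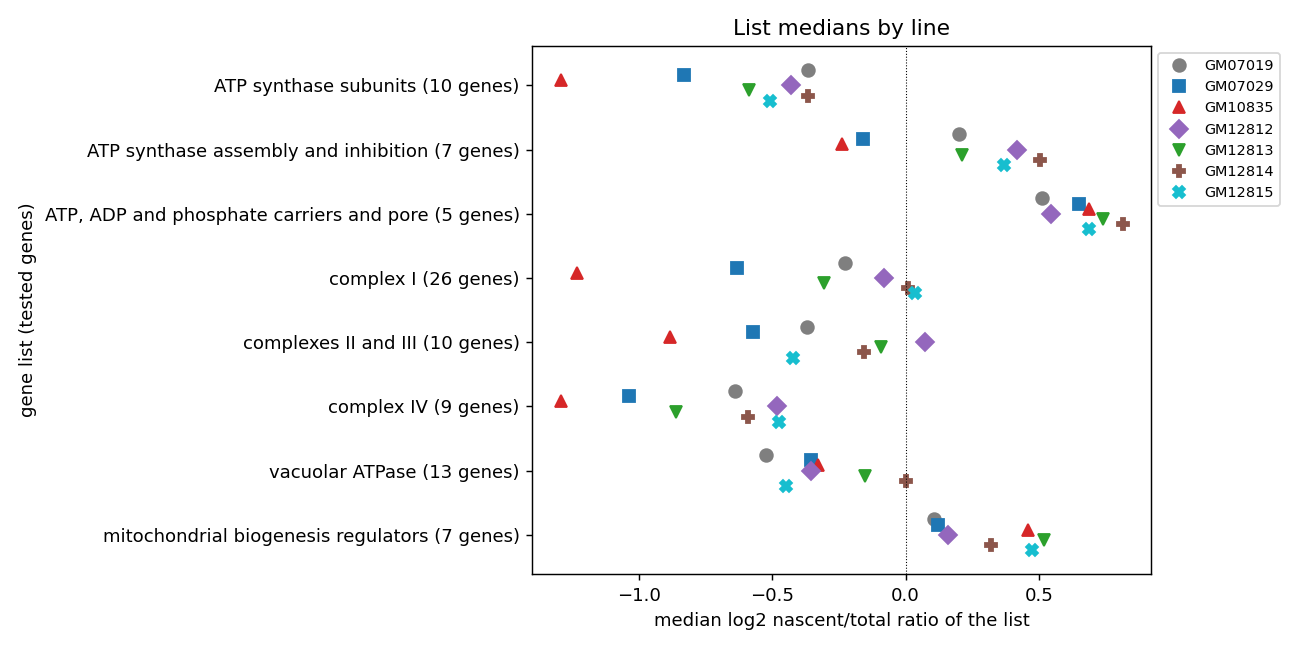
Median log2 nascent/total ratio (0 is the culture's median cluster) of the tested genes of each list, with 1 symbol per cell line. GM10835 is leftmost for the ATP synthase subunits, the assembly list, which includes NDUFAF1 of complex I, and the respiratory complexes. It lies among the other lines for the carriers, the vacuolar ATPase and the biogenesis regulators.

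Genes listed as working with ATP synthase without being part of it had other median ratios. Of 7 tested assembly and inhibition genes, 3 were lower and 3 higher, with a median of 0.13. Among the 3 higher was NDUFAF1 (0.49), an assembly factor of complex I. The counts and the median of this list are therefore not of ATP synthase factors alone. OXA1L, an insertase of the inner membrane, was at -0.84 ± 0.15, and TMEM242, an assembly factor, at 1.29 ± 0.32 (SD, n = 7), the latter with a mean total RNA of 6.17, under background. Of 5 carriers and pore genes 4 were higher and none was lower, with a median of 0.65. That median is the value of VDAC2, named after its values were seen, whose mean total RNA of 5.84 was under background, so that 1 of the 4 rests on a bound. SLC25A4, the ADP/ATP carrier, stood at 1.54 ± 0.30 and VDAC3, an outer membrane pore, at 0.87 ± 0.87. The 7 biogenesis regulators had a median of 0.23 (1 lower, 4 higher), with NRF1 itself at 1.02 ± 0.21 and its coactivator PPRC1 at 1.20 ± 0.20. GM10835 had the lowest ratio for 3 of 7, 2 of 5 and 0 of 7 genes of these lists.

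The vacuolar ATPase, a proton pump of similar architecture that spends ATP in lysosomes and endosomes, had 6 of 13 genes lower, none higher and a median of -0.25. ATP6AP2, an accessory subunit, was at -1.39 ± 0.22, and ATP6V1A, its catalytic subunit, at -1.04 ± 0.21 (SD, n = 7). GM10835 had the lowest ratio for 3 of 13 and the highest total RNA for 5 of 13 of these genes, compared with 10 of 10 and 9 of 10 for ATP synthase. The difference between the lists was not tested.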

How the data were processed

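Total and nascent RNA of 13 LCL cultures were measured on 32 exon arrays. The authors deposited log2 gene-level intensities of 21788 transcript clusters. Affymetrix Power Tools and build hg18 stand in the submitters' processing notes. Not given in the sources used here are the summary algorithm, the background correction and any joint normalization of both fractions. Per the labels' protocols, ribosomal RNA was reduced before cDNA synthesis with whole-transcript kits.

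Symbols came from the platform table, and locations and upstream sequences from RefSeq (GRCh38.p14). Means of 216 olfactory receptor clusters gave the background, at their 95th percentile. The ratio of a culture was nascent minus total log2 value, technical duplicates averaged, centred on the culture's median over 14167 tested clusters. limma 3.58.1 (R 4.3.3; lmFit, eBayes with a trend) tested 1 value per line against 0 over 7 lines, and compared 3 cultures each of GM07029, GM10835 and GM12813 by a moderated F test with pairwise contrasts. p-values are two-sided and Benjamini-Hochberg adjusted over all tested clusters (pairs: over clusters and contrasts together), with a threshold of 0.05. The subunit c genes were compared by an exact sign-flip permutation test. Members and lists were chosen with earlier results of these data known. Beside the members, each list contributed 2 named genes, those farthest from 0 in mean ratio past the threshold. NDUFAF1, SDHD, CYCS and VDAC2 were named beyond these, after their values were seen. The marker lists were of B cells, plasma cells, T and NK cells, monocytes and granulocytes, and fibroblasts and epithelia. The code was tested on simulated data. Alternatives covered centring, signal trend, normalization, filters, duplicates, the test, and leaving out lines or cultures.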

Additional observations from a re-analysis of the deposited data

Results flagged for a closer look

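Among the 30 sets of 7 line values (10 genes in ratio, total and nascent RNA), a line stood far from the others in 6, by Dixon's test at a level where chance flags about 5% of sets. It was GM10835 each time. The ratio of ATP5F1D was -1.35 there, the lowest. Total RNA was the highest there for ATP5F1C at 11.77, ATP5F1D at 9.58, ATP5MC1 at 9.04, ATP5MC3 at 11.32 and ATP5PD at 7.45. These sets share the same 7 lines. The share of all tested clusters flagged by this test was not computed, so the count is not read as particular to these genes. Among all tested clusters GM10835 had the highest total RNA for 30.2% and the lowest ratio for 22.6%.

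The nascent/total ratio differed between GM07029, GM10835 and GM12813 by limma's F test for 4 genes. The range of the line means was 0.63 for ATP5F1A, 0.47 for ATP5F1C, 0.94 for ATP5F1D and 1.86 for ATP5MJ.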

How the results depend on the processing

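Of 666 member values recomputed under alternatives, 599 kept their direction and their side of the threshold. Between the 3 lines, the direction counted was that of GM12813 minus GM10835, and the threshold was that of the F test. Other pairs of lines are not in this count. Settings that changed only the test, or left out a GM07029 culture, could not change that direction. The scale between fractions mattered most. With no centring 1 member was called lower and 4 were called higher, among them ATP5F1D and ATP5MC2. The ratio turned positive for ATP5F1D (0.36), ATP5MC1 (0.12), ATP5MC2 (0.32) and ATP5MJ (0.43), as the removed median itself was positive. The nascent calls among members fell from 9 to 4 with quantile normalization and to 2 with levels centred on each array, and the members highest in GM10835 in nascent RNA from 7 to 3 and 1. The small ATP5MC2 nascent difference, GM12813 minus GM10835, turned to 0.15 with quantile normalization, 0.18 with centred levels, 0.0098 with the first array of each culture and 0.055 without GM10835 replicate 1, and without single cultures it lay between -0.060 and 0.055. With centred levels that of ATP5F1C turned to 0.036 and that of ATP5PF to 0.053. The cause was not tested.

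ATP5MC1 minus ATP5MC3 turned to -0.14 and ATP5MC2 minus ATP5MC3 fell to 0.21 with the signal trend removed. With quantile normalization they were 0.23 and 0.44 and no longer passed (exact adjusted p 0.0703). Leaving out a line gave 0.21 to 0.29 and 0.38 to 0.54. Clusters whose ratio differed between 3 lines numbered 3595, against 2012 with no filter, 2142 with the first array of each culture, 2279 with a plain F test and 1808 to 5065 without single cultures (1808, 2238 and 2350 without GM10835 replicates 3, 2 and 1, 1951 and 2080 without GM12813 replicates 2 and 3). Members called stayed at 3 to 6 throughout. Replicate numbers did not pair the cultures (correlations of deviations between lines from -0.46 to 0.39). A replicate block gave 2458 clusters and 3 members for the ratio, with ATP5F1C no longer called (adjusted p 0.0621), and 9 members each for total and nascent RNA. No other single-symbol cluster of a member could be tried, since each had 1. Further clusters of ATP5PF and ATP5PO shared with a neighbouring gene's symbol were not used. The position of GM10835 and its alternatives were chosen after seeing the data. The dimmest member, ATP5PD, was near background and left the test at the 99th percentile.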
